A study of Mus with 12 samples.

Results

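Interleukins are secreted signalling proteins of the immune system, and their receptors are the membrane chains that bind them. The 76 genes described here are those whose mouse symbol is an interleukin or interleukin receptor symbol and whose row in the tables carries an Ensembl transcript, out of 58273 gene names on such rows. Il11, Il11ra1 and Il13ra2 were left out by this rule. All 76 had a row in the table of the implantation stage and 67 had one in the table of the labor stage. Il17a, Il17f, Il1f10, Il1rapl2, Il20, Il22, Il25, Il3 and Il9 were in the implantation table only. The rule used the names and no measured value, but it was set with earlier results of these data known.

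RNA was sequenced from the whole uterus of 12 ICR mice, an outbred stock, aged 8 weeks per the labels, with 3 mice at each of 4 days of pregnancy. E0.5 was compared with E4.5 (the implantation stage) and E18.5 with E15.5 (the labor stage). The study chose these days for the changes in progesterone around implantation and labor. No mouse carried a transgene or received a drug, 1 mouse gave 1 library, and whether implantation sites, placentas or membranes were removed is not given in the sources used here. In whole tissue, fewer cells of a type and less RNA per cell cannot be told apart.

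Interleukins act in families that share receptor chains. Interleukin-1 and its relatives (IL-18, IL-33 and the IL-36 group) signal through paired receptors. IL-1 itself is held back by a soluble antagonist (Il1rn) and a decoy receptor (Il1r2). Cytokines of the common gamma chain (Il2rg), such as IL-2, IL-7 and IL-15, govern lymphocytes, and IL-15 is needed by the natural killer (NK) cells that fill the decidua after implantation. IL-1 and IL-6 are produced in the uterus and cervix around labor.

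Library totals at the implantation stage ran from 58020989 to 70906881 counts, and the 76 rows together took 37936 to 56279 of them. The labor table gives no counts, so its depth is unknown here. E4.5 replicate 3 stood apart from the other 5 libraries of its stage: 6 ovarian steroidogenic genes summed to 1337 FPKM in it and to 3.91 to 6.07 FPKM in the others. In the same library the uterine identity markers summed to 11.7 FPKM, against 69.0 and 112 in the other E4.5 uteri, and the smooth muscle markers to 172 FPKM, against 656 and 978. Its part in each result was measured by leaving it out. In the labor table the trophoblast markers summed to 35.9 to 55.3 FPKM at E18.5 and to 3.04 to 12.5 FPKM at E15.5. Of the 5 tested, 1 (Tpbpa) met the criterion for change defined further on as higher at E18.5, and their median log2 fold change was -0.10. The yolk sac markers ran from 11.4 to 942 FPKM without order by day.

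Most interleukin messages were scarce, and the 5 highest members of the implantation table were receptor chains. FPKM scales fragment counts by transcript length and by the size of the library, so levels can be compared between genes within a table. Rows merged with other genes are an exception. At the implantation stage 53 of the 76 rows reached a mean of 0.1 FPKM over the 6 libraries and were tested, 23 were not, and 9 were at 0 in every library. The median of the 76 means was 0.331 FPKM, and Il13ra1, a chain of the receptor for IL-13 and IL-4, was the highest at 9.57 FPKM. It was followed by Il17rc (6.28 FPKM), Il4ra (5.94), Il1r1 (5.52) and Il10rb (5.14, in a row merged with Ifnar2 and Gm21970). At the labor stage 51 of 67 rows were tested, 31 had a mean of at least 1 FPKM, and the 4 above 10 FPKM were Il1r2 (25.7), Il13ra1 (20.6), Il4ra (17.4) and Il1a (15.3). The tables were normalized separately, and no level was tested between them.

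Of the 53 rows tested between E0.5 and E4.5, 15 (28.3%) met the study's criterion, which asks for a log2 fold change of 1 or more in either direction and p under 0.05 before adjustment. Over all 59732 tested rows of the table the share was 12.2%. The 15 comprised 10 members that were higher at E0.5 (6.37% of all rows were) and 5 that were lower (5.82%). With limma on log2(FPKM + 1) only 3 of the 53 met the criterion, near the 5.13% of all rows that did. The adjusted p (edgeR's quasi-likelihood test, adjusted over all rows by the method of Benjamini and Hochberg, threshold 0.05) was passed by 2 members, Il1f8 and Il6ra, and by 1.22% of all rows. By DESeq2 it was passed by 12 members and by 9.74% of all rows, and 19 members (17.0% of all rows) had an unadjusted p under 0.05 in edgeR. All 3 E0.5 uteri lay above all 3 E4.5 uteri for 16 members (12.8% of all rows) and below them for 9 (12.5%). The median log2 fold change of the 53 was 0.22, against -0.01 over all rows. Of the 53, 8 had passed the filter on low values through 1 of the days only, and 4 of these (Il1rn, Il1rl1, Il12rb2 and Il7r) were among the 15. The others were Il24, Il17b, Il23a and Il5ra.

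Without E4.5 replicate 3, 19 members met the criterion (14.1% of all rows did) and 8 passed the adjusted p (6.08%). Il12rb2 and Il7r were lost, and Il18, Il1f9, Il22ra1, Il2rb, Il5ra and Il7 were gained. The 8 past the adjusted p in edgeR's test were Il1f8, Il6ra, Il15, Il20ra, Il13ra1, Il18r1, Il1rl1 and Il1rn. Of these, Il1rl1 and Il1rn had passed the filter on low values through E0.5 only.

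**Figure D1:**
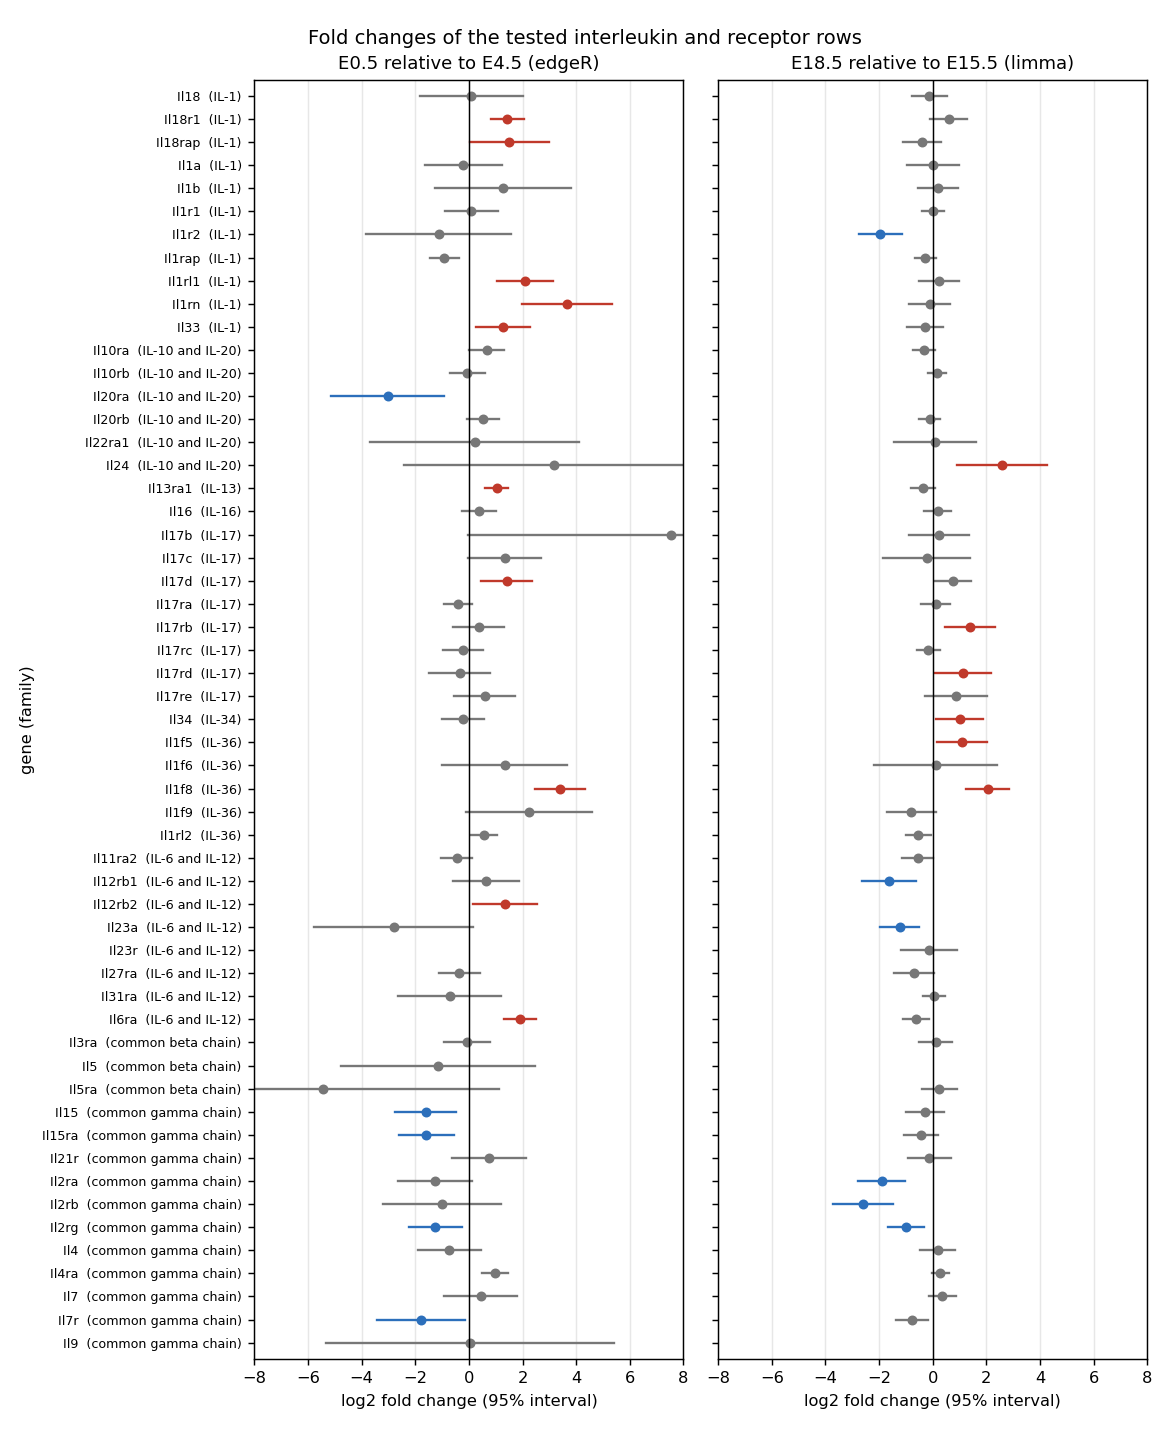
Log2 fold changes (x axis) with 95% intervals of every tested interleukin and receptor row (y axis, family in brackets), E0.5 relative to E4.5 on the left and E18.5 relative to E15.5 on the right. Red and blue mark rows that met the criterion as higher or lower on the first-named day, 15 on the left and 12 on the right, grey marks the others, intervals are cut at the edge of the axis, and a row not tested in a stage has no point.

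Among the ligands of the IL-1 family, neither of the classical forms met the criterion between E0.5 and E4.5. Il1b, the secreted form released by inflammasomes, was at 0.195, 1.22 and 0.0453 FPKM at E0.5 and at 0.203, 0.214 and 0.179 FPKM at E4.5. The E0.5 values lay on both sides of the E4.5 values, and 1 uterus, E0.5 replicate 2, carried the higher mean. The log2 fold change was 1.29 (95% interval -1.26 to 3.83; adjusted p = 0.577 in edgeR's test) and became -0.74 without that library. Il1a, which is also active as the uncleaved precursor, was at 0.691, 0.530 and 0.940 FPKM at E0.5 and at 1.52, 0.560 and 0.374 FPKM at E4.5, with full overlap (log2 fold change -0.21).

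The inhibitor Il1rn, the soluble antagonist of the IL-1 receptor, was higher at E0.5. It stood at 1.09, 0.457 and 0.232 FPKM at E0.5 and at 0.0519, 0.0229 and 0.0586 FPKM at E4.5. Every E0.5 uterus lay above every E4.5 uterus, although the message was scarce on both days. Il1rn had passed the filter on low values through E0.5 only. The log2 fold change was 3.67 ± 0.70 (SE; adjusted p = 0.0644 in edgeR's test), and 3.85 (adjusted p = 0.0402) without E4.5 replicate 3. The signalling receptor Il1r1 overlapped fully, at 8.38, 6.12 and 2.60 FPKM against 5.86, 5.87 and 4.28 FPKM (0.10, interval -0.88 to 1.07). The decoy receptor Il1r2, which binds IL-1 without signalling, was at 0.0577, 0.267 and 0.130 FPKM at E0.5 and at 0.559, 0.408 and 0.0175 FPKM at E4.5. It was low in all 6 libraries and lowest in E4.5 replicate 3 (log2 fold change -1.12, and -1.68 without that library; the criterion was not met in either).

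Il33, an alarmin of epithelial and stromal nuclei, and its receptor Il1rl1 (ST2) were both higher at E0.5. Il33 was at 2.5, 1.13 and 2.81 FPKM at E0.5 and at 0.782, 1.26 and 0.658 FPKM at E4.5. The lowest E0.5 uterus fell below the highest E4.5 uterus, and the log2 fold change was 1.26 ± 0.42 (SE). Il33 no longer met the criterion without E0.5 replicate 1, E0.5 replicate 3 or E4.5 replicate 1 (1.0 to 1.56 over the 6 fits that each left out 1 library). Il1rl1 was at 0.187, 0.163 and 0.190 FPKM against 0.0300, 0.0363 and 0.0596 FPKM, without overlap, and its log2 fold change was 2.10 ± 0.44 (SE). It had passed the filter on low values through E0.5 only. The criterion was lost in limma on log2(FPKM + 0.1), where the log2 fold change was 0.98, and on log2(FPKM + 1). The Il1rl1 row spans positions 40429570 to 40448148 of chromosome 1, and the longer RefSeq gene 40404864 to 40465418.

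Both chains of the IL-18 receptor were also higher at E0.5, while IL-18 itself was not. Il18r1, the binding chain, was at 0.906, 0.935 and 1.25 FPKM at E0.5 and at 0.373, 0.370 and 0.400 FPKM at E4.5. These values were tight within each day, and the log2 fold change was 1.43 ± 0.26 (SE; adjusted p = 0.056, and 0.0334 without E4.5 replicate 3, both in edgeR's test). Il18rap, the accessory chain, had a log2 fold change of 1.51 ± 0.61 (SE), which met the criterion in 2 of the 6 fits that left out a library: it was lost without any E0.5 uterus and without E4.5 replicate 1 (1.10 to 2.43). Il18 was at 1.64, 1.25 and 2.14 FPKM at E0.5 and at 0.663, 0.411 and 3.78 FPKM at E4.5. The highest value was that of E4.5 replicate 3, and the log2 fold change of 0.09 became 1.60 ± 0.47 (SE), meeting the criterion, without it. With the IL-36 group counted apart, 5 of the 11 tested members of the IL-1 family met the criterion as higher at E0.5 (6.37% of all rows did) and 0 as lower (5.82%). Of the 5, Il1rn and Il1rl1 had passed the filter on low values through E0.5 only, and the families were assigned after the values were seen.

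The IL-36 group, epithelial cytokines of the IL-1 family, held the member with the smallest adjusted p. Il1f8, which encodes IL-36 beta and whose row spans positions 24153082 to 24161636 of chromosome 2 (GRCm38, plus strand), was at 2.23, 2.5 and 1.16 FPKM at E0.5. At E4.5 it was at 0.216, 0.170 and 0.167 FPKM, so that the lowest E0.5 uterus was several times the highest E4.5 uterus. It was higher at E0.5 by a log2 fold change of 3.40 ± 0.39 (SE; interval 2.47 to 4.34; adjusted p = 0.0233 in edgeR's test). It met the criterion in all 6 fits that left out a library (3.18 to 3.67). It passed the adjusted p in 1 of them, that without E4.5 replicate 3 (adjusted p = 0.00911 in edgeR's test).

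The other IL-36 ligands were more variable. Il1f6 (IL-36 alpha) was at 2.76, 2.98 and 2.05 FPKM against 2.31, 0.557 and 0.0903 FPKM, and Il1f9 (IL-36 gamma) at 1.31, 2.26 and 0.450 FPKM against 0.380, 0.425 and 0.0293 FPKM. Neither met the criterion (log2 fold changes 1.33 and 2.24). Il1f6 met it without E4.5 replicate 1 and in limma on log2(FPKM + 0.1) and log2(FPKM + 1). Il1f9 met it without E0.5 replicate 3 or E4.5 replicate 3 (1.70 without the latter), with DESeq2, in limma on log2(FPKM + 0.1) and with the replicate number as a block. Their receptor Il1rl2 was among the more abundant members at 6.30, 5.20 and 5.02 FPKM against 4.07, 4.11 and 2.98 FPKM. Its groups did not overlap, but its log2 fold change of 0.57 stayed under the fold of the criterion. The 6 epithelial markers summed to 218 to 259 FPKM at E0.5 and to 72.7 to 153.4 FPKM at E4.5, and 3 of the 6 met the criterion as higher at E0.5; the part of epithelial content in the IL-36 values was not tested.

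The IL-6 receptor was the other member past the adjusted p. IL-6 binds Il6ra and then signals through the shared chain Il6st. Il6ra, whose row spans positions 89864059 to 89913196 of chromosome 3 (GRCm38, minus strand) and extends 5265 bases past the 3′ end of the RefSeq gene, was at 5.54, 4.5 and 2.97 FPKM at E0.5. It was at 1.08, 1.16 and 1.23 FPKM at E4.5, a narrow range that lay below every E0.5 uterus. It was higher at E0.5 by 1.92 ± 0.25 on the log2 scale (SE; interval 1.33 to 2.51; adjusted p = 0.028 in edgeR's test). It met the criterion whichever library was left out (1.72 to 2.12), and passed the adjusted p in 1 of these 6 fits, that without E4.5 replicate 3 (0.0115). Macrophage markers, 4 of 8 of which met the criterion, summed to 85.1 to 119 FPKM at E0.5 and 46.8 to 50.1 FPKM at E4.5; their part in the Il6ra value was not tested.

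The ligand Il6 was detected in 1 library of this stage. Its counts were 0, 0 and 19 in the E0.5 libraries and 0 in each of the 3 E4.5 libraries, so it was not tested. The shared chain Il6st was abundant on both days, with means of 31.6 and 27.8 FPKM (log2 fold change 0.20). Of the other members of the IL-6 and IL-12 family, Il12rb2, a signalling chain of the IL-12 receptor, was at 0.207, 0.308 and 0.221 FPKM at E0.5 and at 0.120, 0.108 and 0.0534 FPKM at E4.5. With a log2 fold change of 1.35 it met the criterion, but not without E0.5 replicate 2, E0.5 replicate 3, E4.5 replicate 2 or E4.5 replicate 3 (1.06 to 1.60). Il12rb2 too had passed the filter on low values through E0.5 only. Il11ra2, which shares near-identical sequence with Il11ra1 so that its reads are uncertain, was at 2.12, 2.13 and 2.40 FPKM against 3.62, 2.88 and 2.68 FPKM (-0.46).

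In the common gamma chain family 4 of 11 tested members met the criterion as lower at E0.5 (5.82% of all rows did) and 0 as higher (6.37%). This family too was assigned after the values were seen, and Il7r, 1 of the 4, had passed the filter on low values through E4.5 only. Il15, the growth factor of NK cells, was at 0.722, 0.605 and 0.720 FPKM at E0.5 and at 3.13, 2.20 and 0.927 FPKM at E4.5. The groups did not overlap, and the E4.5 uterus nearest to E0.5 was replicate 3. The log2 fold change was -1.62 ± 0.48 (SE; adjusted p = 0.159), and -1.98 ± 0.29 (SE; adjusted p = 0.0126) without that library, both in edgeR's test. Il15ra, which presents IL-15 on the producing cell, was at 0.584, 0.589 and 1.3 FPKM against 2.08, 1.74 and 3.72 FPKM. Here E4.5 replicate 3 was the highest, and the log2 fold change was -1.58 ± 0.43 (SE), or -1.22 without it. Both genes met the criterion in all 6 fits that left out a library.

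The lymphocyte receptor chains were less even between uteri. Il2rg, the common gamma chain, was at 0.471, 0.622 and 0.701 FPKM at E0.5 and at 2.14, 1.17 and 0.916 FPKM at E4.5, in a row merged with the gene models Gm614 and Gm20489. Its log2 fold change of -1.25 ± 0.42 (SE) met the criterion, but not without E0.5 replicate 1, E0.5 replicate 2 or E4.5 replicate 1 (-1.50 to -0.76). Il2rb, the chain shared by the IL-2 and IL-15 receptors, was at 1.17, 2.51 and 3.88 FPKM against 10.0, 4.17 and 0.611 FPKM. It was highest and lowest in 2 uteri of the same day, did not meet the criterion (-1.0 ± 0.92, SE), and met it without E4.5 replicate 3 (-1.52). Il7r, the IL-7 receptor, was scarce at 0.0244 to 0.0884 FPKM against 0.120 to 0.289 FPKM. With a log2 fold change of -1.78 it lost the criterion without E0.5 replicate 1, E0.5 replicate 3, E4.5 replicate 1 or E4.5 replicate 3 (-2.46 to -1.31). The 7 NK cell markers summed to 3.19 to 9.43 FPKM at E0.5 and to 50.2, 20.3 and 1.98 FPKM at E4.5, and 0 of the 7 met the criterion (edgeR). The 6 T cell markers summed to 1.27, 1.39 and 1.63 FPKM at E0.5 and to 2.64, 1.9 and 4.05 FPKM at E4.5, without overlap. Of the 6, 2 were tested and neither met the criterion. The part of these cells in the receptor values was not tested.

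**Figure D2:**
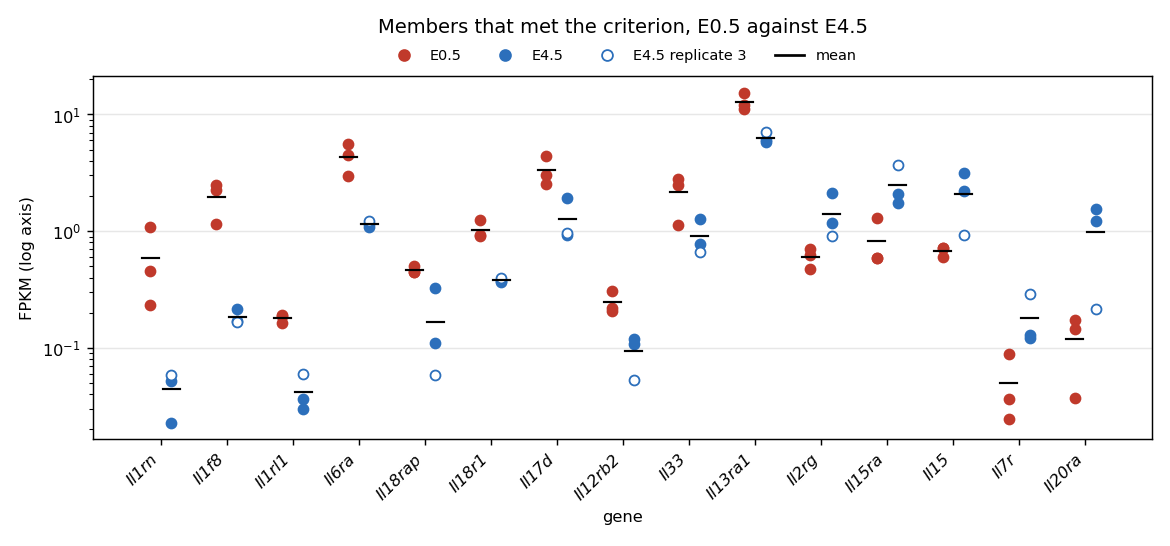
FPKM on a log axis (y) of the 15 members that met the criterion between E0.5 (red) and E4.5 (blue), ordered by log2 fold change along the x axis, with 1 point per uterus and a line at the mean. E4.5 replicate 3 is the open circle, near the E0.5 points for Il15 (0.927 FPKM) and Il20ra (0.215 FPKM) and beside the other E4.5 points for Il6ra (1.23 FPKM) and Il1f8 (0.167 FPKM).

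The receptors for IL-4 and IL-13 were both near 1 log2 unit higher at E0.5. Il13ra1 was at 11.1, 12.1 and 15.3 FPKM at E0.5 and at 5.85, 6.07 and 7.01 FPKM at E4.5, without overlap. Its log2 fold change was 1.04 ± 0.18 (SE; adjusted p = 0.0551 in edgeR's test), and it fell under the fold of the criterion without E0.5 replicate 3 or E4.5 replicate 2 (0.88 to 1.15). Il4ra, its partner chain, was at 6.71, 7.96 and 8.84 FPKM against 4.67, 3.87 and 3.61 FPKM. These groups did not overlap either, and the log2 fold change of 0.96 ± 0.20 (SE) did not reach the fold of the criterion. It did so without E0.5 replicate 1 or E4.5 replicate 1 (0.86 to 1.11 over the 6 fits) and with upper quartile scaling, and the criterion was then met. The ligand Il4 was at most 0.649 FPKM in the 6 libraries, in a row that runs 9478 bases past the RefSeq gene, and Il13 was not tested.

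In the IL-10 and IL-20 family, Il20ra, a chain of the receptors for IL-19, IL-20 and IL-24, was the member with the most negative log2 fold change among those that met the criterion. It was at 0.174, 0.146 and 0.0371 FPKM at E0.5 and at 1.22, 1.53 and 0.215 FPKM at E4.5. The groups did not overlap, and E4.5 replicate 3 was close to the E0.5 values. The log2 fold change was -3.03 ± 0.88 (SE; adjusted p = 0.155), and -3.51 ± 0.61 (SE; adjusted p = 0.0222) without that library, both in edgeR's test. Its ligands Il19 and Il20 were not tested, and Il24 was at 0.604, 0.0366 and 0 FPKM against 0, 0 and 0.0669 FPKM. Il10rb, in a row merged with Ifnar2 and Gm21970, was at 4.64, 5.49 and 4.86 FPKM against 3.84, 4.18 and 7.83 FPKM (-0.06).

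In the IL-17 family only Il17d, a ligand of non-immune tissues, met the criterion. It was at 3.00, 2.54 and 4.45 FPKM at E0.5 and at 0.925, 1.91 and 0.955 FPKM at E4.5, without overlap, and its log2 fold change was 1.41 ± 0.40 (SE; 1.14 to 1.81 over the fits that left out a library). Of the receptors of the IL-17 family, Il17re was without overlap between the days and under the fold of the criterion, and the others overlapped. Il17rc was at 6.77, 5.29 and 5.42 FPKM against 8.31, 7.88 and 4.01 FPKM (-0.21), and Il17re, the IL-17C receptor, at 4.31, 4.56 and 4.5 FPKM against 4.07, 3.69 and 1.06 FPKM (0.59). Il17rb, which binds IL-25, was at 3.51, 4.41 and 2.85 FPKM against 1.27, 4.01 and 3.23 FPKM (0.37). Il17rd was at 5.25, 1.71 and 1.46 FPKM against 3.08, 3.63 and 3.99 FPKM (-0.34), and met the criterion without E0.5 replicate 1 (-1.14). Il17b and Il5ra had fitted log2 fold changes of 7.52 and -5.43, but each rested on 1 library above 0.1 FPKM and neither met the criterion. Il17b met it with DESeq2, with upper quartile scaling, with no filter on low values and without E0.5 replicate 1, and Il5ra without E4.5 replicate 3.

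Between E18.5 and E15.5, 12 of the 51 tested rows (23.5%) met the criterion in limma on log2(FPKM + 0.1), against 6.05% of all 30928 tested rows. Of these, 6 were higher at E18.5 (3.11% of all rows were) and 6 lower (2.93%). At an adjusted p under 0.05 in limma 0 members passed (0.0259% of all rows did), and 16 had an unadjusted p under 0.05 (12.2% of all rows). The E18.5 uteri lay above the E15.5 uteri without overlap for 11 members (10.9% of all rows) and below them for 12 (8.96%). The median log2 fold change of the 51 was -0.10, against 0.02 over all rows. On this scale the pseudocount makes the fold changes of rows below about 1 FPKM smaller than the ratio of their levels. The 12 calls became 7 without E15.5 replicate 1 (5.01% of all rows), where Il17rb, Il17rd, Il1f5, Il2rg and Il34 were lost.

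Il1r2, the IL-1 decoy receptor, was the most abundant member of the labor table and was lower at E18.5. Its row in the implantation table spans positions 40074079 to 40125231 of chromosome 1 (GRCm38, plus strand). It was at 34.5, 46.4 and 39.8 FPKM at E15.5 and at 7.13, 8.32 and 17.8 FPKM at E18.5. All E15.5 uteri lay well above all E18.5 uteri, and E18.5 replicate 3 was the nearest to them. Between the days it differed by a log2 fold change of -1.96 ± 0.34 (SE; interval -2.76 to -1.16; adjusted p = 0.124 in limma). Without E18.5 replicate 3 it was -2.36 (adjusted p = 0.0407 in limma), and Il1r2 was then the 1 member past the adjusted p (0.0905% of all rows were). It met the criterion in all 6 fits that left out a library and in all 7 other settings.

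The signalling receptor Il1r1 did not meet the criterion. It was at 3.75, 3.54 and 3.53 FPKM at E15.5 and at 2.92, 3.87 and 4.23 FPKM at E18.5 (log2 fold change 0.01, interval -0.39 to 0.42). The ratio of Il1r2 to Il1r1 in FPKM was 9.21, 13.1 and 11.3 in the E15.5 uteri and 2.44, 2.15 and 4.2 in the E18.5 uteri. At the implantation stage the same ratio lay between 0.00410 and 0.0954. The stages were assembled separately, so the rows of these genes differ, and the ratios were not tested between the stages.

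The IL-1 ligands and their antagonist overlapped between E15.5 and E18.5. Il1a was at 27.7, 11.7 and 8.74 FPKM at E15.5 and at 12.3, 13.7 and 17.6 FPKM at E18.5 (0.02, interval -0.95 to 0.99). E15.5 replicate 1, the highest, was also the library in which 8 neutrophil genes summed to 28.2 FPKM, against 2.02 to 6.31 FPKM in the other 5; the part of those cells in the Il1a value was not tested. Il1b was at 0.851, 0.464 and 0.660 FPKM at E15.5 and at 0.879, 0.522 and 0.920 FPKM at E18.5 (0.20, interval -0.55 to 0.95). Il1rn was at 0.498, 0.320 and 0.290 FPKM against 0.413, 0.355 and 0.231 FPKM (-0.11). Il33 was at 2.64, 2.16 and 1.58 FPKM against 2.36, 1.39 and 1.42 FPKM (-0.30), and its receptor Il1rl1 at 0.608, 0.719 and 0.334 FPKM against 0.719, 0.546 and 0.666 FPKM (0.23). With the IL-36 group again counted apart, 1 of 11 tested members of the IL-1 family, Il1r2, met the criterion at this stage, against 6.05% of all rows.

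Il1f8 was higher at E18.5 and was the 1 ligand to meet the criterion in both stages. It was at 1.14, 1.35 and 2.38 FPKM at E15.5 and at 9.78, 6.0 and 5.10 FPKM at E18.5. The groups did not overlap, and the log2 fold change was 2.05 ± 0.34 (SE; adjusted p = 0.117 in limma; 1.78 to 2.34 over the 6 fits that left out a library, all of which met the criterion). Il1f5, the IL-36 receptor antagonist, was scarce at 0.0497, 0.0607 and 0.190 FPKM against 0.255, 0.387 and 0.289 FPKM. It met the criterion (1.09 ± 0.39, SE) in 2 of those 6 fits, and lost it without E15.5 replicate 1, E15.5 replicate 2, E18.5 replicate 2 or E18.5 replicate 3 (0.91 to 1.39).

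The other IL-36 ligands and the receptor did not meet the criterion. Il1f6 was at 4.90, 0.992 and 0.618 FPKM at E15.5 and at 0.774, 0.833 and 5.89 FPKM at E18.5, with 1 high uterus on each day (0.11). Il1f9 was at 2.99, 1.52 and 1.08 FPKM against 0.906, 0.731 and 1.25 FPKM (-0.79, and meeting the criterion at -1.10 without E15.5 replicate 3), and Il1rl2 at 3.37, 2.13 and 2.48 FPKM against 1.75, 1.80 and 1.76 FPKM. Il1rl2 was without overlap, and its log2 fold change of -0.54 was under the fold of the criterion. The epithelial markers summed to 202 to 443 FPKM at E15.5 and to 641 to 897 FPKM at E18.5, and 4 of the 6 met the criterion as higher at E18.5; their part in the Il1f8 value was not tested.

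Il24, a ligand of the IL-20 receptors, had the largest positive log2 fold change among the members that met the criterion at this stage. It was at 0.269, 0.334 and 2.04 FPKM at E15.5 and at 7.24, 2.75 and 3.41 FPKM at E18.5. The groups did not overlap, and E15.5 replicate 3 was the nearest to E18.5. Between the days it differed by a log2 fold change of 2.58 ± 0.71 (SE; adjusted p = 0.233 in limma; 2.12 to 3.39 over the fits that left out a library, all of which met the criterion). Its receptor chain Il20ra was not tested here, at 0 to 0.132 FPKM. Il20rb, in a row merged with Nck1, was at 3.41 to 4.05 FPKM against 2.87 to 3.89 FPKM (-0.10). Il22ra1, the other partner of Il20rb for IL-24, was at 0.0723 to 0.969 FPKM against 0.297 to 0.323 FPKM (0.09).

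Il2rb, Il2ra, Il12rb1 and Il2rg, receptor chains carried by lymphocytes, were lower at E18.5. They were grouped after their values were seen. Among other chains, Il18r1 (0.59) and Il4ra (0.29) were higher at E18.5 without overlap. Il7r (-0.77) was lower without overlap, Il21r (-0.12) overlapped, and none of these met the criterion. In the common gamma chain family 3 of 10 tested members met it as lower (2.93% of all rows did) and 0 as higher (3.11%). Il2rb was at 15.2, 11.1 and 5.40 FPKM at E15.5 and at 0.900, 1.51 and 2.58 FPKM at E18.5. The groups did not overlap, and the log2 fold change of -2.59 ± 0.47 (SE; adjusted p = 0.14 in limma) was the most negative of the 51. Il2ra, the high-affinity chain of the IL-2 receptor, was at 1.02, 0.797 and 0.465 FPKM against 0.0692, 0.155 and 0.157 FPKM (-1.89 ± 0.37, SE). Il12rb1, a chain of the IL-12 and IL-23 receptors, was at 1.05, 0.983 and 0.398 FPKM against 0.148, 0.127 and 0.278 FPKM (-1.62 ± 0.42, SE). None of the 3 overlapped between the days, and all 3 met the criterion in all 6 fits that left out a library. Il2rg, in a row again merged with Gm614 and Gm20489, was at 7.73, 5.39 and 3.73 FPKM against 2.32, 2.38 and 3.25 FPKM. With a log2 fold change of -1.01 it lost the criterion without E15.5 replicate 1, E18.5 replicate 1 or E18.5 replicate 2 (-1.27 to -0.75).

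NK cell markers moved with these chains. All 7 of the 7 met the criterion as lower at E18.5, with a median log2 fold change of -2.04, and their sum was 84.5 to 204 FPKM at E15.5 and 7.05 to 28.6 FPKM at E18.5. Prf1, the pore-forming protein of cytotoxic granules, had a log2 fold change of -3.62, and Ncr1, an NK cell receptor, -1.86. The T cell markers were scarce, with sums of 1.88 to 2.77 FPKM at E15.5 and 0.786 to 1.03 FPKM at E18.5, and 1 of the 3 tested met the criterion, as lower. The part of NK cell content in the receptor values was not tested. Il15, the ligand of Il2rb, was at 4.63, 2.23 and 2.25 FPKM at E15.5 and at 2.12, 2.19 and 2.73 FPKM at E18.5 (-0.28, interval -1.0 to 0.43). Il15ra was at 1.55, 1.40 and 2.01 FPKM against 1.14, 0.876 and 1.62 FPKM (-0.44), and both overlapped.

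**Figure D3:**
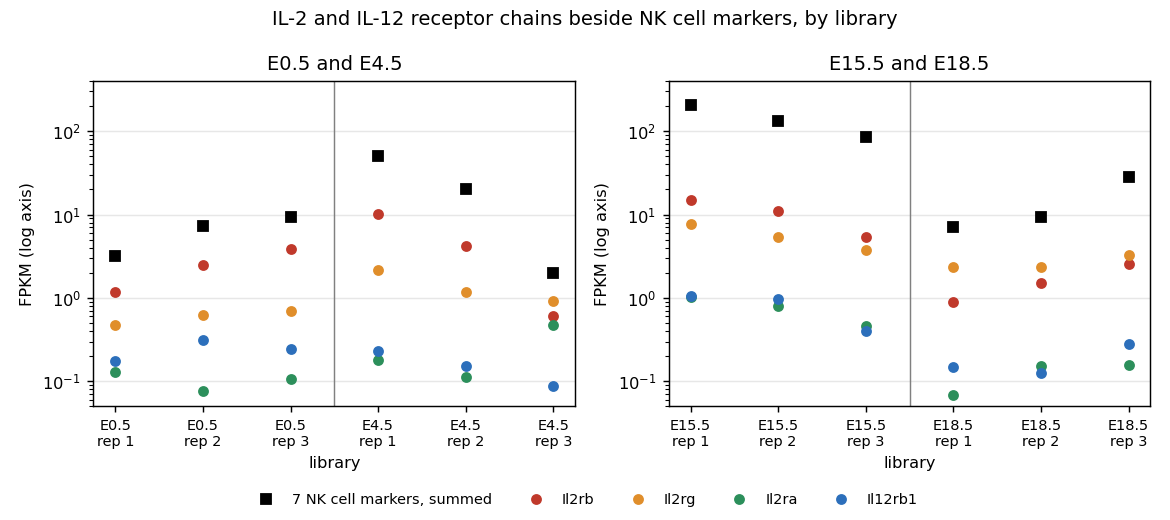
FPKM on a log axis (y) of Il2rb, Il2rg, Il2ra and Il12rb1 (coloured points) and the summed FPKM of 7 NK cell markers (black squares) in each library (x axis), with E0.5 and E4.5 on the left and E15.5 and E18.5 on the right. The NK marker sum was 1.98 FPKM in E4.5 replicate 3, where Il2rb was 0.611 FPKM, and all 5 series were lower in the E18.5 libraries than in the E15.5 libraries.

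Il23a, the specific subunit of IL-23, was at 1.12, 2.41 and 1.52 FPKM at E15.5 and at 0.575, 0.562 and 0.758 FPKM at E18.5. The groups did not overlap, the log2 fold change was -1.23 ± 0.31 (SE), and the criterion was lost without E15.5 replicate 2 (-0.95). Its receptor Il23r lay between 0.0312 and 0.213 FPKM in the 6 libraries. Il6 was at 0.0594, 0 and 0.0899 FPKM at E15.5 and at 0.0405, 0.115 and 0 FPKM at E18.5, and was not tested. Il6ra was at 4.51, 4.81 and 4.96 FPKM against 2.56, 4.19 and 2.63 FPKM. It did not overlap, and its log2 fold change of -0.63 ± 0.21 (SE) was under the fold of the criterion. Il31ra was at 4.69, 3.21 and 3.93 FPKM against 3.93, 4.04 and 4.13 FPKM (0.05), in a row merged with another gene model.

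Of the receptors of the IL-17 family, Il17rb and Il17rd met the criterion as higher at E18.5, and so did the ligand Il34. Il17ra (0.11), Il17rc and Il17re (0.88) did not meet it. Il17rb was at 0.234, 0.768 and 0.587 FPKM at E15.5 and at 1.78, 1.46 and 1.13 FPKM at E18.5, without overlap (1.39 ± 0.39, SE), and met the criterion except without E15.5 replicate 1 (0.99). Il17rd, which also restrains growth factor signalling, was at 0.379, 0.630 and 1.57 FPKM against 1.76, 1.82 and 1.58 FPKM, where E15.5 replicate 3 nearly reached the lowest E18.5 uterus. With a log2 fold change of 1.12 it met the criterion in 1 of the 6 fits, that without E15.5 replicate 3 (0.72 to 1.62). Il34, a ligand of the macrophage receptor Csf1r, was at 0.330, 0.710 and 0.927 FPKM against 1.46, 1.03 and 1.52 FPKM. Its log2 fold change of 1.0 lost the criterion without E15.5 replicate 1, E18.5 replicate 1 or E18.5 replicate 3 (0.64 to 1.27) and under scaling to the 75th percentile. Il17rc was at 5.63, 5.86 and 6.31 FPKM against 4.15, 5.67 and 6.30 FPKM (-0.16).

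Of the other more abundant chains, Il13ra1, Il4ra, Il10rb and Il5ra did not meet the criterion. Il13ra1 was at 29.7, 21.6 and 18.8 FPKM at E15.5 and at 19.5, 17.9 and 16.5 FPKM at E18.5 (-0.36, interval -0.80 to 0.09). Il4ra was at 13.9, 16.2 and 17.0 FPKM against 21.1, 18.49 and 17.8 FPKM (0.29, interval -0.03 to 0.60). Il10rb, in a row again merged with Ifnar2 and Gm21970, was at 8.70, 7.98 and 9.84 FPKM against 11, 9.94 and 8.86 FPKM (0.17). Il5ra, the IL-5 receptor of eosinophils, was at 2.42, 3.81 and 4.91 FPKM against 4.33, 5.01 and 3.50 FPKM (0.24).

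**Figure D4:**
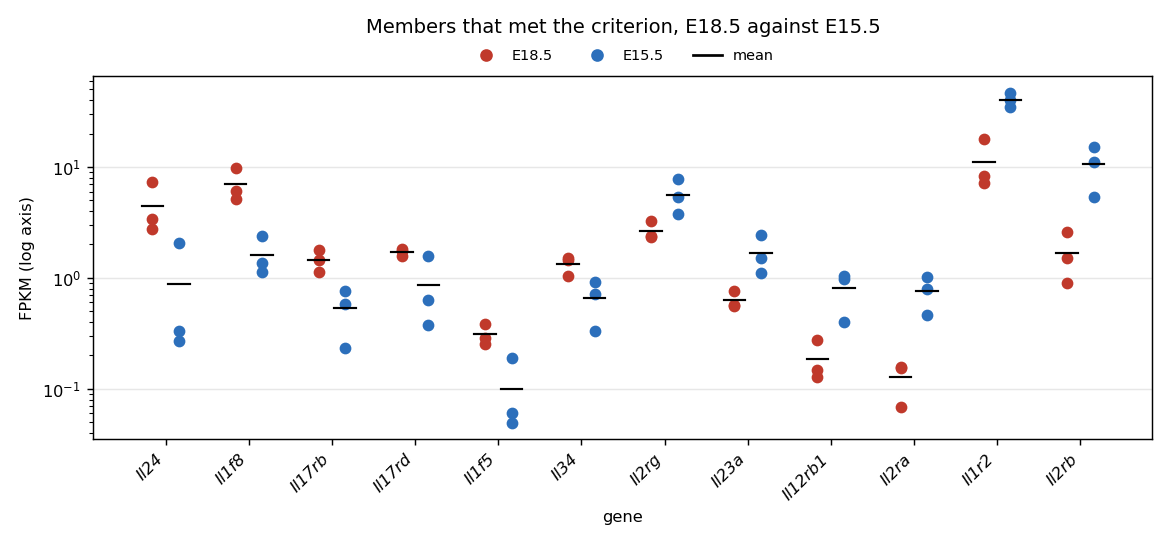
FPKM on a log axis (y) of the 12 members that met the criterion between E18.5 (red) and E15.5 (blue), ordered along the x axis with the higher ones at E18.5 to the left, with 1 point per uterus and a line at the mean. Il1r2 ran from 7.13 to 17.8 FPKM at E18.5 and from 34.5 to 46.4 FPKM at E15.5, and Il1f5 and Il2ra were the scarcest.

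Some members below the criterion were still without overlap between days. Il1rap, the accessory chain that IL-1, IL-33 and IL-36 receptors share, was at 0.406, 0.533 and 0.590 FPKM at E0.5 and at 0.881, 1.06 and 0.964 FPKM at E4.5 (-0.91 ± 0.22, SE), and met the criterion without E0.5 replicate 3. Il23a was at 0, 0.0439 and 0.0359 FPKM at E0.5 and at 0.115, 0.287 and 0.241 FPKM at E4.5 (-2.80), and met the criterion with DESeq2 and without E0.5 replicate 1. At that stage Il23a had passed the filter on low values through E4.5 only. Il17c, an epithelial ligand of Il17re, was at 0.759, 0.713 and 0.716 FPKM at E0.5 and at 0.202, 0.392 and 0.251 FPKM at E4.5 (1.34), and met the criterion with DESeq2 and with upper quartile scaling. At labor Il7r was at 0.572, 0.610 and 0.533 FPKM at E15.5 and at 0.245, 0.297 and 0.343 FPKM at E18.5 (-0.77 ± 0.25, SE), and Il17d at 0.490, 0.414 and 0.788 FPKM against 0.811, 1.12 and 1.06 FPKM (0.75 ± 0.29, SE). The 21 members tested in neither stage were mostly ligands of lymphocytes and myeloid cells: Il2, Il3, Il6, Il10, Il12a, Il12b, Il13, Il17a, Il17f, Il19, Il1f10, Il1rapl1, Il1rapl2, Il20, Il21, Il22, Il22ra2, Il25, Il27, Il31 and Il9r.

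Of the 49 members tested in both stages, 13 met the criterion at implantation and 11 at labor, against 11.9% and 4.33% of the 22056 paired rows. Il1f8 and Il2rg met it in both (2 of the 13 and 2 of the 11), each in the same direction: Il1f8 higher at E0.5 and at E18.5, Il2rg lower. Of the paired rows 1.09% met it in both stages, and 0.843% in the same direction. Whether the effect of day was the same in both stages was tested with limma over all 12 libraries. Its adjusted p was passed by 2 of the 49, against 2.64% of the paired rows, and 12 of the 49 had an unadjusted p under 0.05, against 18.2% of those rows. They were Il6ra, higher at E0.5 than E4.5 and not at E18.5 (difference 2.41 ± 0.34, SE; adjusted p = 0.00683), and Il13ra1 (1.36 ± 0.26, SE; adjusted p = 0.0253). Il6ra passed in every fit that left out a library, while Il13ra1 did not without E0.5 replicate 2 or 3, E15.5 replicate 2, any E18.5 uterus or E4.5 replicate 1 (adjusted p up to 0.0705 in limma).

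The partners of these receptors were followed in lists of shared chains, inflammasome genes, adaptors and JAK-STAT genes. At the implantation stage 7 of the 46 tested genes of these lists met the criterion, 5 as higher at E0.5 and 2 as lower, against 12.2% of all rows. Among them, 1 of 10 tested shared chains and decoys met the criterion as higher at E0.5 (Ifnlr1, the interferon lambda receptor, 1.21) and 1 as lower (Lifr, the leukemia inhibitory factor receptor, -1.56). Lifr was at 3.80, 4.33 and 7.17 FPKM at E0.5 and at 16.1, 17.0 and 12.3 FPKM at E4.5, without overlap. Of 8 inflammasome genes 2 were higher at E0.5 and 0 lower: Casp1, the protease that matures IL-1 beta and IL-18 (1.02), and Nlrc4, an inflammasome sensor. Nlrc4 was at 2.0, 1.52 and 1.3 FPKM against 0.182, 0.233 and 0.310 FPKM (2.73 ± 0.30, SE; adjusted p = 0.021 in edgeR's test).

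Of 13 adaptors of the IL-1 and IL-17 receptors, Irak4 (1.04) and Nfkbiz (1.33) were higher at E0.5 and 0 were lower. Of 15 JAK-STAT genes, the kinase Jak1 was lower at E0.5 (-1.09) and 0 were higher. At the labor stage 1 of the 48 tested genes of these lists met the criterion, against 6.05% of all rows. It was Cish, a feedback inhibitor induced by STAT5, which was at 0.729, 1.59 and 0.464 FPKM at E15.5 and at 2.24, 2.71 and 2.23 FPKM at E18.5 (1.42 ± 0.40, SE), without overlap.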

How the data were processed

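Whole uteri of 12 mice were sequenced by the authors. The labels and the study's methods differ on the library (poly(A) selection or removal of ribosomal RNA) and on the aligner (HISAT2 2.0 and Bowtie 0.12.2 in the submitters' processing notes, Bowtie2 and Tophat2 in the methods), and how reads were assigned to genes, and whether by strand, is not given in the sources used here. With StringTie and Ballgown the authors then computed FPKM for each stage on its own and deposited 1 table per stage. Whole-number counts were also deposited by the authors for the implantation stage. Positions matched GRCm38 for all 76 members, each of which overlapped the RefSeq gene of its name. The value 0.0001 FPKM, which stands for 0 in the implantation table, was set to 0. Unnamed rows took 1.02% to 1.86% of a library's counts.

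The members and all gene lists were chosen with earlier results of these data known, and the family and role of each member were assigned after its values were seen. Members were named with the value of every library where they met the criterion and averaged 0.5 FPKM or more, were among the 12 highest of a stage, or belonged to the IL-1, IL-6, IL-15 or IL-33 systems. Values of members outside this rule, such as Il18, Il24 and Il12rb2 at implantation and Il2ra, Il12rb1 and Il1f5 at labor, were printed after they had been seen. Where the 6 libraries of a stage averaged 0.1 FPKM or more, a row was tested, with edgeR 4.0.16 (TMM, quasi-likelihood F-test) on counts at implantation. At labor the test was that of limma 3.58.1 with a mean-variance trend, on log2(FPKM + 0.1). R was version 4.3.3. Adjusted p-values are Benjamini-Hochberg over all tested rows. Standard errors of edgeR were taken from the fold change and its F value. The difference between the stages was fitted with limma on log2(FPKM + 0.1) over rows paired by shared Ensembl transcripts. Another 48 rows of the implantation table and 9 of the labor table carry a member's name without an Ensembl transcript and were not used as members. The fits were tested on simulated data with large changes placed in abundant rows only, so that test does not cover scarce members. Alternatives were DESeq2 1.42.0, other scalings, filters and pseudocounts, a replicate block, and leaving out each library. The depth of the labor table is unknown here. Same-numbered uteri of the compared days did not deviate together (correlations -0.07 to 0.02 at implantation and -0.04 to 0.00 at labor). Protein and promoter sequences were not used here.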

Additional observations from a re-analysis of the deposited data

Results flagged for a closer look

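For 2 members the effect of day differed between the stages in a test of the difference itself, 2 of 49 against 2.64% of all paired rows. For Il6ra the log2 fold change of E0.5 over E4.5 exceeded that of E18.5 over E15.5 by 2.41 (95% interval 1.66 to 3.16; adjusted p = 0.00683 in limma over 12 libraries). For Il13ra1 the difference was 1.36 (95% interval 0.78 to 1.94; adjusted p = 0.0253 in limma). With the replicate number as a block the adjusted p-values in limma were 0.0524 and 0.0527. Of the 49 members tested, 12 had an unadjusted p under 0.05, against 18.2% of all paired rows.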

How the results depend on the processing

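Of the member calls, those of Il1f8 and Il6ra at implantation and of Il1r2, Il24, Il1f8 and Il2rb at labor met the criterion in every setting and every fit that left out a library. The count of members that met the criterion at implantation (15) was 3 of 53 with limma on log2(FPKM + 1), all 3 higher at E0.5, near the 5.13% of all rows that met it. With limma on log2(FPKM + 0.1) it was 12 (12.9% of all rows). There Il12rb2, Il18rap, Il1rl1, Il2rg and Il7r were lost and Il1f6 and Il1f9 gained. It was 8 with a filter at 1 FPKM, which tests 27 members (12% of all rows), and 12 to 19 when a library was left out (10.0% to 14.1%). At labor (12) it was 7 with a filter at 1 FPKM, which tests 31 (4.17% of all rows), 4 with a pseudocount of 1 FPKM (1.66%), and 7 to 13 when a library was left out (4.97% to 7.74%). The count past the adjusted p at implantation (2) was 12 with DESeq2 (9.74% of all rows passed) and 4 with upper quartile scaling (1.39%). It was 3 with limma on log2(FPKM + 0.1) (1.51%) and 3 with a filter at 1 FPKM (3.07%). When a library was left out it was 0 to 8 (0.0% to 6.08%), being 0 without any library other than E4.5 replicate 3. At labor (0) it was 0 in all other settings and 0 to 1 when a library was left out (0.0% to 0.0905% of all rows). For the difference between the stages (2) it was 1 to 3 when a library was left out. The share of all paired rows was not counted in those fits, so these counts cannot be set against it.

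The replicate numbers do not pair the uteri. With the replicate number as a block, 12 members met the criterion at implantation (10.4% of all rows) and 0 passed the adjusted p (0.0% of all rows did), 12 met the criterion at labor (5.99%), and 0 passed for the difference between the stages; the cause was not tested.

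Among the members named by the rule, changes of sign occurred only in those that did not meet the criterion in that stage. At implantation Il10rb was 0.0053 with the block and 0.036 with upper quartile scaling, Il1a 0.011 with limma on log2(FPKM + 0.1) and 0.040 with the block, and Il1r1 -0.044, -0.017 and -0.036 with limma at pseudocounts of 0.1 and 1 FPKM and with the block. Scaling to the 75th percentile at labor gave -0.053 for Il1a, -0.061 for Il1r1 and -0.026 for Il31ra. Leaving out a library gave ranges, at implantation, of -0.22 to 0.30 for Il10rb, -0.49 to 0.012 for Il17rc, -0.56 to 0.67 for Il1a, -0.74 to 1.82 for Il1b, -0.27 to 0.44 for Il1r1 and -1.52 to 0.13 for Il2rb and, at labor, of -0.46 to 0.057 for Il15, -0.28 to 0.013 for Il17rc, -0.32 to 0.50 for Il1a, -0.095 to 0.16 for Il1r1, -0.040 to 0.42 for Il1rl1, -0.25 to 0.075 for Il1rn, -0.090 to 0.18 for Il31ra and -0.030 to 0.47 for Il5ra. Among the members chosen after their values were seen, the ranges were -0.36 to 1.60 for Il18, -0.24 to 7.62 for Il24 and -9.09 to 3.67 for Il5ra at implantation, and -0.80 to 0.94 for Il1f6, -0.19 to 0.024 for Il20rb, -0.50 to 0.82 for Il22ra1 and -0.07 to 0.21 for Il17ra at labor. The causes were not tested. With 3 uteri a day, no exact permutation test between days can go below p = 0.1, and the 23 and 16 untested members were left out by the filter at 0.1 FPKM.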
